A study of Mus musculus with 98 samples.

Results

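The tripartite motif (TRIM) proteins were followed in blood leukocytes and spleen of mice across 3 models of systemic inflammation. Members were all probe sets whose single gene symbol in the platform's gene table begins with Trim and a number. They were 64 of the 22690 probe sets on the array and stood for 39 of the 12393 genes that a probe set names alone. By known biology they were split into 15 probe sets of 8 interferon-linked genes (Trim6, Trim12a, Trim21, Trim25, Trim26, Trim30a, Trim30d and Trim34a), 1 probe set of an erythroid gene (Trim10), and 48 probe sets of 30 other genes. A filter on low mean intensity left 49 of the 64 in the tests: all 15 interferon-linked, the erythroid and 33 of the 48 other probe sets, which together stood for 36 genes. The 15 left out belonged to Trim2 (3 probe sets), Trim37 (3 probe sets), and Trim7, Trim15, Trim16, Trim23, Trim27, Trim44, Trim54, Trim60 and Trim62 (1 each). These were tested only in an alternative without the filter.

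Total RNA was hybridised to 98 1-colour Affymetrix arrays, of which 64 held blood leukocytes and 34 spleen. The models were a burn, trauma-hemorrhage and infused lipopolysaccharide (LPS, from the outer membrane of bacteria), so that model and tissue gave 6 array sets. Each title carries a code, x or c, which the labels do not explain, and a letter. By the labels, E marks injured or infused mice and A marks sham mice in blood. All spleen arrays carry E and are labelled as from injured or infused mice. The comparison followed here is x against c as coded, within each set. Burn blood had 5 x arrays of letter E and 4 of letter A, against 6 c arrays of letter E and 5 of letter A. LPS blood had 5 x arrays of each letter, against 6 c arrays of each letter. Trauma-hemorrhage blood had 6 x arrays of letter E and 5 of letter A, against 6 c arrays of letter E and 5 of letter A. In spleen there were 6 x and 5 c arrays for burn, 6 x and 6 c arrays for LPS, and 5 x and 6 c arrays for trauma-hemorrhage. The labels call the burn spleen samples leukocytes from spleen and the other spleen samples spleen. They give no strain, genotype, age, dose or time. Whether each array stands for its own mouse is not stated either, so that the p-values rest on a spread between samples that could be technical.

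TRIM proteins share a RING domain, B-box domains and a coiled coil, and most work as E3 ubiquitin ligases, which attach ubiquitin to chosen proteins. Many are induced by interferons and act in innate immunity: some support the sensing of viral RNA, some bind viral capsids or antibody-coated particles in the cytosol, and some restrain NF-kB signaling. Other members act in the nucleus as transcriptional cofactors, at membranes of the endoplasmic reticulum, or in the maturation of red blood cells.

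The deposited values are linear intensities, taken here as log2(intensity + 16) and quantile normalized within each tissue. Dim probe sets share a floor within a set, which was lowest in burn spleen (9.68) and highest in LPS blood (32.5), and 4.02% to 7.44% of an array's probe sets lay on it. As floors differed by set, levels are compared neither between sets nor between probe sets, and folds are on the log2(intensity + 16) scale, which understates the change of dim probe sets. The leukocyte markers Ptprc, Coro1a and Laptm5 averaged 10.57 to 11.53 log2 in every array. The beta-actin control probe sets gave a 3' over 5' ratio, on the log2 scale, that tracks RNA integrity and separated the codes in 2 sets. In LPS blood it was 1.07 ± 0.105 in x arrays and 1.58 ± 0.0587 in c arrays (SD, n = 10 and 12), and in trauma-hemorrhage blood 1.42 ± 0.191 in x arrays and 1.99 ± 0.135 in c arrays (SD, n = 11 each), without overlap in either. Code and this ratio cannot be told apart in these 2 sets. In burn blood, c replicates 4 and 5 of letter E stood apart, with mean neutrophil marker levels of 12.2 and 11.9 log2, against 8.55 to 9.54 log2 in the other 4 c arrays of that letter.

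Promoters are shown first, because the family is split here by interferon linkage: those of the interferon-linked genes called in the most sets, Trim25 (6 of 6 by at least 1 probe set) and Trim30a (5 of 6), and that of the erythroid gene, Trim10. The windows are RefSeq's, GRCm38.p6, from 250 bases before to 50 bases after a gene start, and 31 of the 39 genes had one. They were searched on both strands for TTTC, any 2 bases and TTTC again, the core of the interferon-stimulated response element (ISRE), and AGATAA, a binding motif of GATA factors. Each is printed 5' to 3' on the strand of its gene, with matches in capitals. Trim25 lies on the plus strand at chr11:88999153-88999452, Trim30a on the minus strand at chr7:104465144-104465443, and Trim10 on the plus strand at chr17:36869324-36869623.
Trim25: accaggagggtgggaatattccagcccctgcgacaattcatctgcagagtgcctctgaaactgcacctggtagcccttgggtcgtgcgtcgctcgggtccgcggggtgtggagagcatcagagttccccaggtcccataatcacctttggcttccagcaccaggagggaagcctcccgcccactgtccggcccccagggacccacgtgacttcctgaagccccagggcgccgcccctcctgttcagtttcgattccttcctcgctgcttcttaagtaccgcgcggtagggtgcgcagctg
Trim30a: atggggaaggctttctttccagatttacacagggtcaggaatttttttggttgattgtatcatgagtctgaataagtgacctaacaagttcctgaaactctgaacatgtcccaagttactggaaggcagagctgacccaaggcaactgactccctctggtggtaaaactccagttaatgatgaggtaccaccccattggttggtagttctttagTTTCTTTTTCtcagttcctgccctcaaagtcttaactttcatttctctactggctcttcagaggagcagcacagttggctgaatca
Trim10: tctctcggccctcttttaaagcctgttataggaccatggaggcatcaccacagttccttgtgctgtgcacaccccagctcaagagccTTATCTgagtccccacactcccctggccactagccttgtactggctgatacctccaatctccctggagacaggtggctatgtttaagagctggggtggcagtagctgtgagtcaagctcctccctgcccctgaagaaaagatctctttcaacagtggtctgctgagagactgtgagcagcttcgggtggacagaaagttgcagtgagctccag
The Trim25 window holds neither motif. The Trim30a window holds the ISRE core from 36 bases before the start (a window at another start of the gene, not printed, also holds it), and that of Trim10 holds AGATAA on the other strand, where it reads TTATCT, 163 bases before the start.

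A window with the ISRE core was found for 6 of the 8 interferon-linked genes (not for Trim25 and Trim6), for 1 of the 22 other genes with a window (Trim2) and not for Trim10, while 3.44% of all 32851 windows hold it. AGATAA was in a window of Trim10 and of Trim39 and in none of the interferon-linked genes, while 11.2% of all windows hold it. The 30 bases around the match are shown for the interferon-linked genes, with the match in capitals. They lie at chr7:104315466-104315495 (Trim12a, minus strand), chr7:102565450-102565479 (Trim21, minus strand), chr17:36836976-36837005 (Trim26, plus strand), chr7:104465210-104465239 (Trim30a, minus strand), chr7:104507871-104507900 (Trim30d, minus strand) and chr7:104244457-104244486 (Trim34a, plus strand). That of Trim21 is printed on the strand opposite to the gene, where its match lies.
Trim12a: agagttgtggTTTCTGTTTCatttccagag
Trim21: caaatttcacTTTCAGTTTCctctcagagg
Trim26: ccgcttccgaTTTCACTTTCcttttctcgg
Trim30a: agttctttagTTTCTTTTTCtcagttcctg
Trim30d: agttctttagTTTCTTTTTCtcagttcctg
Trim34a: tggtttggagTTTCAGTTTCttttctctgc
The stretches of Trim30a and Trim30d are the same letters. In Trim21 and Trim26 the window holds 2 overlapping matches, of which 1 is in capitals. Such matches describe letters in a window, and no match says only that these letters are not in it. In gene order, Trim6, Trim34a, Trim12a, Trim30a and Trim30d follow each other on chromosome 7, with at most 5 other protein-coding genes between neighbours. Near-identical copies in such a cluster can share probes, so that their signals may be mixed.

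Most interferon-linked members were higher in x in both trauma-hemorrhage sets. The other members counted more lower than higher calls there, as did all probe sets tested. In trauma-hemorrhage spleen limma called 11 of the 15 interferon-linked probe sets higher in x and 0 lower, with a median difference of 0.58 log2. The median was 1.01 with 1 probe set per gene (7 interferon-linked probe sets) and with a filter at the 50th percentile (11 of them). Of the 33 other probe sets, 1 was higher and 7 lower, with a median of -0.01. Over all 15838 probe sets tested in that set the median was -0.01, and 26.4% were called in either direction (10.4% higher and 16.1% lower). In bulk samples, fewer cells of a type and less RNA per cell cannot be told apart.

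In trauma-hemorrhage blood 10 of the 15 interferon-linked probe sets were higher in x and 1 lower (median 0.28), and 3 of the 33 other probe sets were higher and 12 lower (median -0.06). There 51.6% of all probe sets were called (22.5% higher and 29.1% lower), with a median of -0.03. Of all calls there 43.7% were higher, and 54.8% without further scaling, under which 12 interferon-linked probe sets were higher and 1 lower, and 3 other probe sets higher and 9 lower. In LPS blood, where 26.5% were called (13.2% in each direction), 4 interferon-linked probe sets were higher and 1 lower (median 0.10), and 2 other probe sets were higher and 4 lower (median -0.01). With the beta-actin ratio as a covariate, 0 of 49 members were called in trauma-hemorrhage blood (27 of 15838 over all) and 3 of 49 in LPS blood (1705 of 15838 over all), where the interferon-linked members then had 0 higher and 1 lower. Without the covariate, 27 of 49 members (8174 over all) and 11 of 49 (4194 over all) were called.

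In LPS spleen, where 3.46% of all probe sets were called (2.56% higher and 0.897% lower), 4 interferon-linked probe sets were higher in x and 0 lower (median 0.12, against 0.20 with 1 probe set per gene and 0.22 with the 50th percentile filter), and of the other members only Trim59 was called. Leaving out 1 array at a time gave 2 to 5 members called there, with 2 without c replicate 1 and 3 without c replicate 2, c replicate 4 or any 1 of the 6 x arrays. In burn spleen, where 16.2% were called (8.93% higher and 7.25% lower), 3 interferon-linked probe sets were higher and 2 lower (median 0.03), and 3 other probe sets were higher and 1 lower. The 3 higher interferon-linked probe sets were all of Trim25, and with 1 probe set per gene 1 of 7 was higher and 1 lower. In burn blood, where 19% were called (7.7% higher and 11.3% lower), 3 interferon-linked probe sets were higher and 1 lower (median -0.00), and 1 other probe set was higher and 2 lower. Leaving out the 2 c arrays with high neutrophil markers, 13 members were called in burn blood in place of 7, while the number over all was 4406 in place of 3009, with the interferon-linked at 3 higher and 2 lower.

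**Figure D1:**
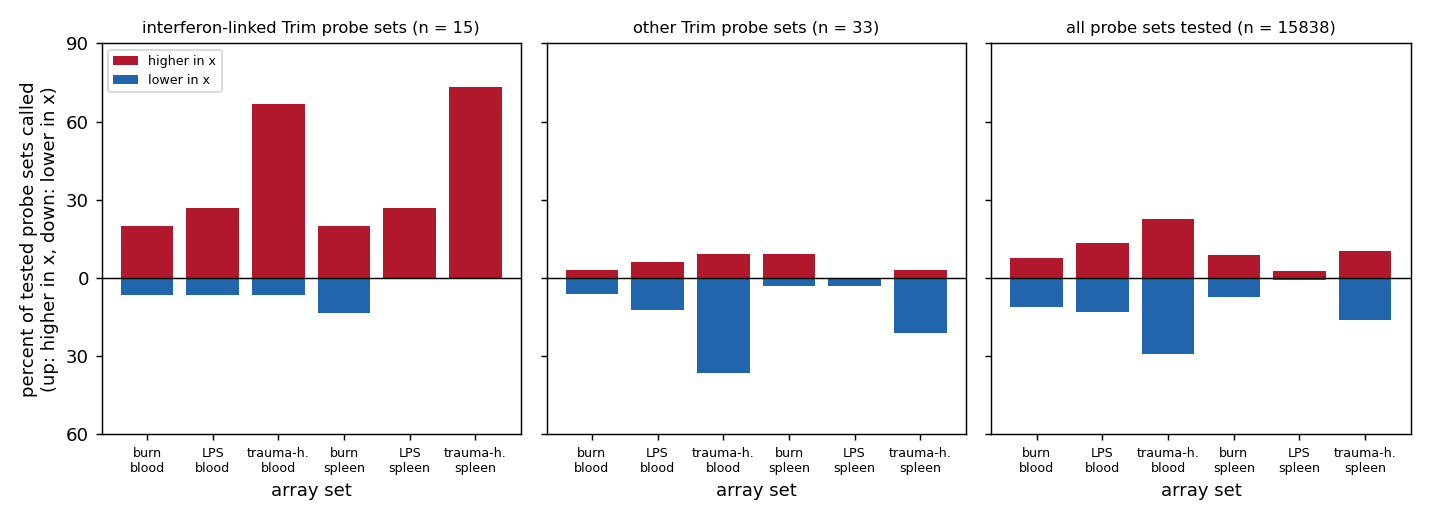
Percent of tested probe sets called (adjusted p under 0.05) higher in x (red, upward) or lower in x (blue, downward) in each array set, for the 15 interferon-linked Trim probe sets, the 33 other Trim probe sets and all 15838 probe sets tested. The interferon-linked bars reach 11 of 15 higher in trauma-hemorrhage spleen and 10 of 15 in trauma-hemorrhage blood, and the longest downward bar of the other members is 12 of 33, in trauma-hemorrhage blood.

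Over the 6 sets, 12 of the 49 members were called in 0 sets, 16 in 1, 9 in 2, 6 in 3, 4 in 4 and 2 in 5. At least 4 sets called 6 of the 49 (12.2%), against 919 of all 15838 (5.8%). These 6 were the 3 probe sets of Trim25, Trim30a 1451860_a_at, Trim30d and Trim59, so that the share counts Trim25 more than once. Counted by direction, 6 members were called higher in at least 1 set and lower in another. The same count was not taken over all probe sets, so that it cannot be read as a trait of the family. The arrays of x and c did not overlap for 14 members in trauma-hemorrhage spleen (16.6% of all probe sets), 9 in burn spleen (10.5%), 4 in LPS spleen (2.82%), 3 in burn blood (1.42%), 2 in trauma-hemorrhage blood (3.58%) and 1 in LPS blood (1.52%). Among the 10 genes with several tested probe sets, 31 of 60 gene and set pairs had a call, in 10 every probe set was called the same way, and in 1 (Trim26 in trauma-hemorrhage blood) probe sets were called in opposite directions. Probe sets ending in _a_at match several transcripts of a gene, and those in _s_at or _x_at may match transcripts of other genes.

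**Figure D2:**
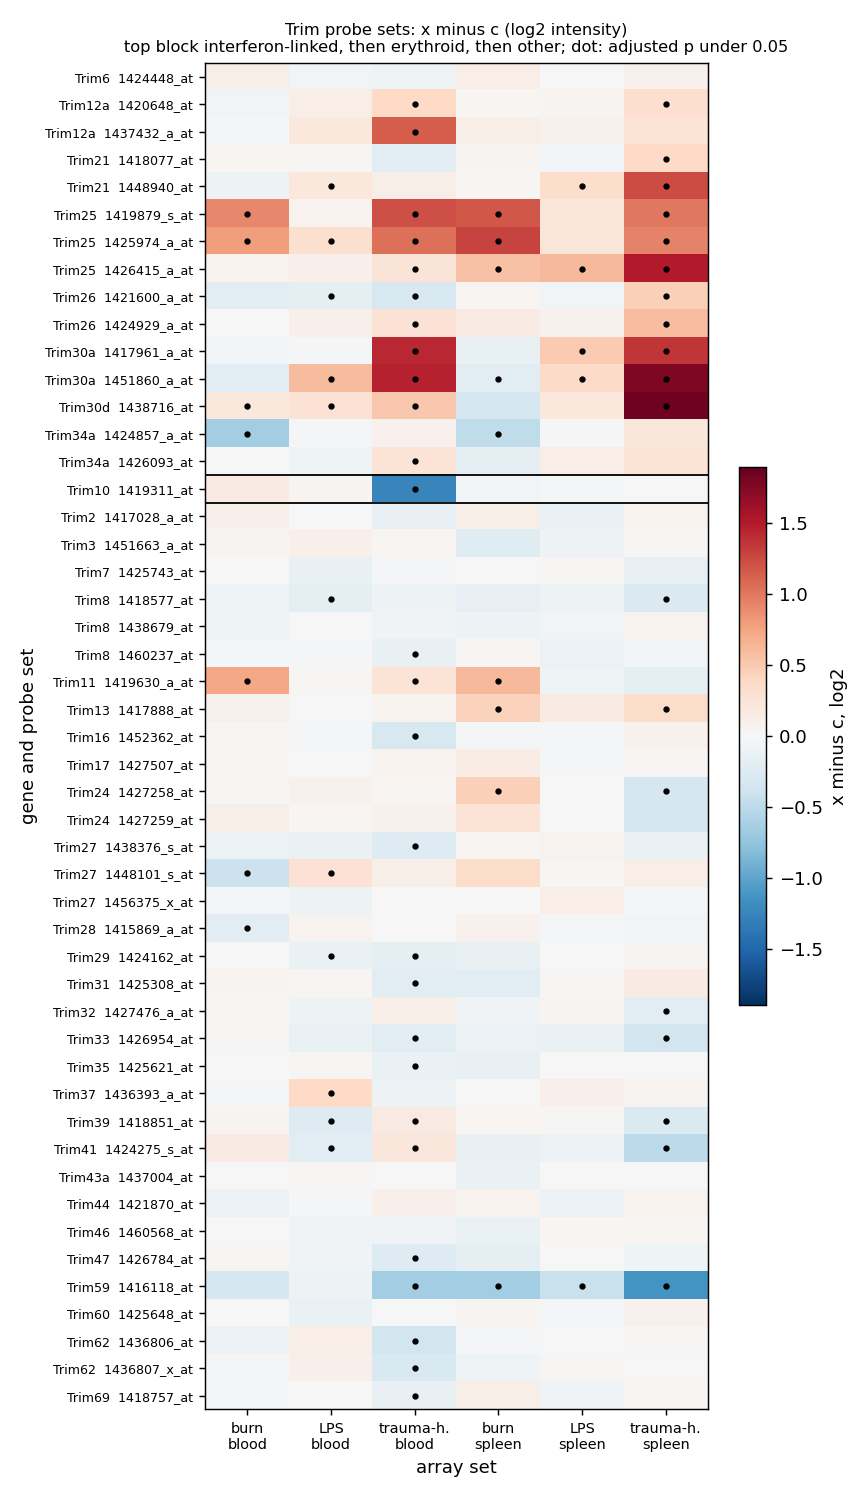
Difference x minus c in log2 intensity (colour scale) for the 49 tested Trim probe sets (down) in the 6 array sets (across), with a dot where the adjusted p was under 0.05. The interferon-linked block at the top holds the strongest red, up to 1.85 for Trim30d in trauma-hemorrhage spleen, and the strongest blue outside it is Trim10 in trauma-hemorrhage blood at -1.25.

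Trim25, a ligase that supports signaling by the viral RNA sensor RIG-I, was higher in x in burn, LPS and trauma-hemorrhage blood and in burn and trauma-hemorrhage spleen by the probe set 1425974_a_at. In burn spleen this probe set ranged from 9.47 to 10.08 log2 in x arrays, with a median of 9.70, against 8.39, 8.61, 8.28, 8.50 and 8.53 in the c arrays. The difference was 1.29 ± 0.11 (SE), 2.44-fold, at adjusted p = 1.31e-06. Every x array lay above every c array.

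In trauma-hemorrhage spleen Trim25 stood at 9.89, 9.42, 9.52, 9.96 and 10.18 log2 in x arrays, against 8.76 to 9.03 (median 8.82) in c arrays, again without overlap, and differed by 0.95 ± 0.12 (adjusted p = 3.26e-05). In burn blood it ranged from 8.69 to 9.36 (median 8.95) in x arrays, against 7.78 to 8.75 (median 8.09) in c arrays, and differed by 0.79 ± 0.11 (adjusted p = 3.37e-05). In trauma-hemorrhage blood it ranged from 8.56 to 9.67 (median 9.23) in x arrays, against 7.74 to 8.55 (median 8.05) in c arrays, and differed by 1.04 ± 0.11 (adjusted p = 3.51e-07). The groups of trauma-hemorrhage blood did not overlap, and those of burn blood overlapped at their ends. In LPS blood Trim25 differed by 0.30 ± 0.07 (adjusted p = 0.0022), and in LPS spleen by 0.22 ± 0.07, which did not pass (adjusted p = 0.136). In the blood sets a difference is the mean of the differences within the letters, so that it can depart slightly from that of the group means. With the beta-actin ratio as a covariate the difference was 0.66 (adjusted p = 0.274) in trauma-hemorrhage blood and -0.27 (adjusted p = 0.359) in LPS blood.

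The other Trim25 probe sets differed in where they moved. 1419879_s_at was higher in x in the same sets except LPS blood, by 0.91 ± 0.11 in burn blood, 1.22 ± 0.14 in trauma-hemorrhage blood, 1.19 ± 0.10 in burn spleen and 1.01 ± 0.15 in trauma-hemorrhage spleen. 1426415_a_at was higher by 1.5 ± 0.14 in trauma-hemorrhage spleen, 0.62 ± 0.11 in LPS spleen, 0.56 ± 0.11 in burn spleen and 0.24 ± 0.08 in trauma-hemorrhage blood. It did not pass in burn blood, at 0.06 ± 0.08, where the other 2 did. Of the sets, LPS spleen was thus called for Trim25 by 1426415_a_at alone.

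Trim30a, which in mice restrains Toll-like receptor signaling to NF-kB, followed another pattern: it was higher in x in the trauma-hemorrhage and LPS sets and not in the burn sets. By 1451860_a_at, trauma-hemorrhage spleen had 11.25, 11.20, 10.34, 11.06 and 11.14 log2 in x arrays, against 8.82 to 9.41 (median 9.31) in c arrays. That is a difference of 1.77 ± 0.15, 3.40-fold, at adjusted p = 9.1e-07. Replicate 3 of x lay below the other 4 x arrays and above every c array, and without it the difference was 1.93. In trauma-hemorrhage blood the probe set ranged from 9.73 to 11.09 (median 10.33) in x arrays, against 7.73 to 9.79 (median 8.96) in c arrays, a difference of 1.47 ± 0.19 (adjusted p = 4.7e-06). With the beta-actin covariate it was 0.86 there (adjusted p = 0.438).

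In LPS blood Trim30a ranged from 8.63 to 10.02 (median 9.36) in x arrays, against 8.33 to 9.49 (median 8.71) in c arrays, and differed by 0.61 ± 0.14 (adjusted p = 0.0023). With the covariate it was -0.33 (adjusted p = 0.629). In LPS spleen it ranged from 10.45 to 10.78 (median 10.54) in x arrays, against 10.01 to 10.61 (median 10.16) in c arrays, and differed by 0.37 ± 0.09 (adjusted p = 0.033). That call ended in 10 of the 12 fits that left out 1 array (adjusted p = 0.051 to 0.087). In burn spleen Trim30a was lower in x, at 9.67 to 9.83 (median 9.72), against 9.84, 9.92, 9.89, 10.03 and 10.03 in c arrays, without overlap, by -0.21 ± 0.06 (adjusted p = 0.020). That call ended without c replicate 5 (adjusted p = 0.057) and without further scaling (adjusted p = 0.138). In burn blood it differed by -0.21 ± 0.11, which did not pass.

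The other Trim30a probe set, 1417961_a_at, was higher in x by 1.36 ± 0.12 in trauma-hemorrhage spleen, 1.44 ± 0.20 in trauma-hemorrhage blood and 0.50 ± 0.09 in LPS spleen. In LPS blood it stood at -0.04 ± 0.10, where 1451860_a_at was called higher, and in burn spleen at -0.14 ± 0.09. Both probe sets of Trim30a were thus called higher in the same 3 sets, and 1451860_a_at alone was called in LPS blood and burn spleen.

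Trim30d, a rodent paralogue of Trim30a beside it on chromosome 7, had the largest difference of any member. In trauma-hemorrhage spleen it stood at 9.45, 9.95, 8.39, 9.64 and 9.74 log2 in x arrays, against 7.39 to 7.77 (median 7.59) in c arrays, a difference of 1.85 ± 0.21, 3.60-fold (adjusted p = 1.3e-05). Replicate 3 of x was again the lowest x array, above every c array, and without it the difference was 2.11. In blood Trim30d was higher in x by 0.20 ± 0.07 in burn, 0.27 ± 0.09 in LPS and 0.51 ± 0.15 in trauma-hemorrhage. The burn call (adjusted p = 0.044) ended in 13 of 20 fits that left out 1 array. Without further scaling the burn and LPS calls ended, at adjusted p = 0.092 and 0.064, and the covariate gave -0.19 in LPS blood and -0.21 in trauma-hemorrhage blood. In burn spleen Trim30d stood at -0.32 ± 0.11 and in LPS spleen at 0.20 ± 0.07, neither of which passed.

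Trim21, a cytosolic antibody receptor and ligase, was higher in x in trauma-hemorrhage spleen by both of its probe sets. By 1448940_at it stood at 10.06, 9.96, 9.50, 10.29 and 10.28 log2 in x arrays, against 8.66 to 8.88 (median 8.82) in c arrays, a difference of 1.23 ± 0.12, 2.35-fold (adjusted p = 3.0e-06). Every x array lay above every c array. 1418077_at differed by 0.37 ± 0.08 there (adjusted p = 0.0022). In LPS spleen 1448940_at ranged from 9.11 to 9.53 (median 9.21) in x arrays, against 8.70 to 9.02 (median 8.95) in c arrays, and differed by 0.34 ± 0.08 (adjusted p = 0.030). That call ended in 6 of 12 fits without 1 array, and that of LPS blood, 0.21 ± 0.08 (adjusted p = 0.046), in 17 of 22. In both burn sets and in trauma-hemorrhage blood Trim21 did not pass by either probe set.

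Trim12a, a mouse relative of the capsid-binding restriction factor TRIM5 of primates, was higher in x in trauma-hemorrhage blood by 1.16 ± 0.14 by 1437432_a_at. It ranged from 6.82 to 8.28 log2 (median 7.68) in x arrays, against 6.26 to 6.91 (median 6.39) in c arrays. The groups overlapped only at their ends, and the beta-actin covariate gave 0.17 (adjusted p = 0.838). By 1420648_at it was higher by 0.38 ± 0.06 in that set and by 0.32 ± 0.08 in trauma-hemorrhage spleen, where 1437432_a_at did not pass at 0.26 ± 0.10. In LPS blood 1437432_a_at stood at 0.20 ± 0.11, and with the covariate at -1.02 (adjusted p = 0.016).

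Trim34a, of the same gene cluster, was lower in x in both burn sets by 1424857_a_at. That probe set ranged from 8.34 to 8.80 log2 (median 8.67) in x arrays of burn blood, against 9.04 to 9.55 (median 9.19) in c arrays, a difference of -0.66 ± 0.07, 1.58-fold lower (adjusted p = 7.5e-07). In burn spleen it ranged from 9.36 to 9.77 (median 9.54) in x arrays, against 9.91, 9.98, 10.13, 10.21 and 9.93 in c arrays, and differed by -0.48 ± 0.09 (adjusted p = 0.0014). In neither set did the groups overlap. In the LPS and trauma-hemorrhage sets the differences lay between -0.04 and 0.21, and 0 of these 4 passed. Without x replicate 3, that of trauma-hemorrhage spleen passed at 0.34 (adjusted p = 0.0155). The other Trim34a probe set, 1426093_at, was held at the floor on all 20 burn blood arrays, so that it carries no difference there, and it was higher in trauma-hemorrhage blood by 0.26 ± 0.09 (adjusted p = 0.026). In burn spleen 1426093_at did not pass, at -0.17. In trauma-hemorrhage spleen it passed only without x replicate 3, at 0.33 (adjusted p = 0.0298).

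**Figure D3:**
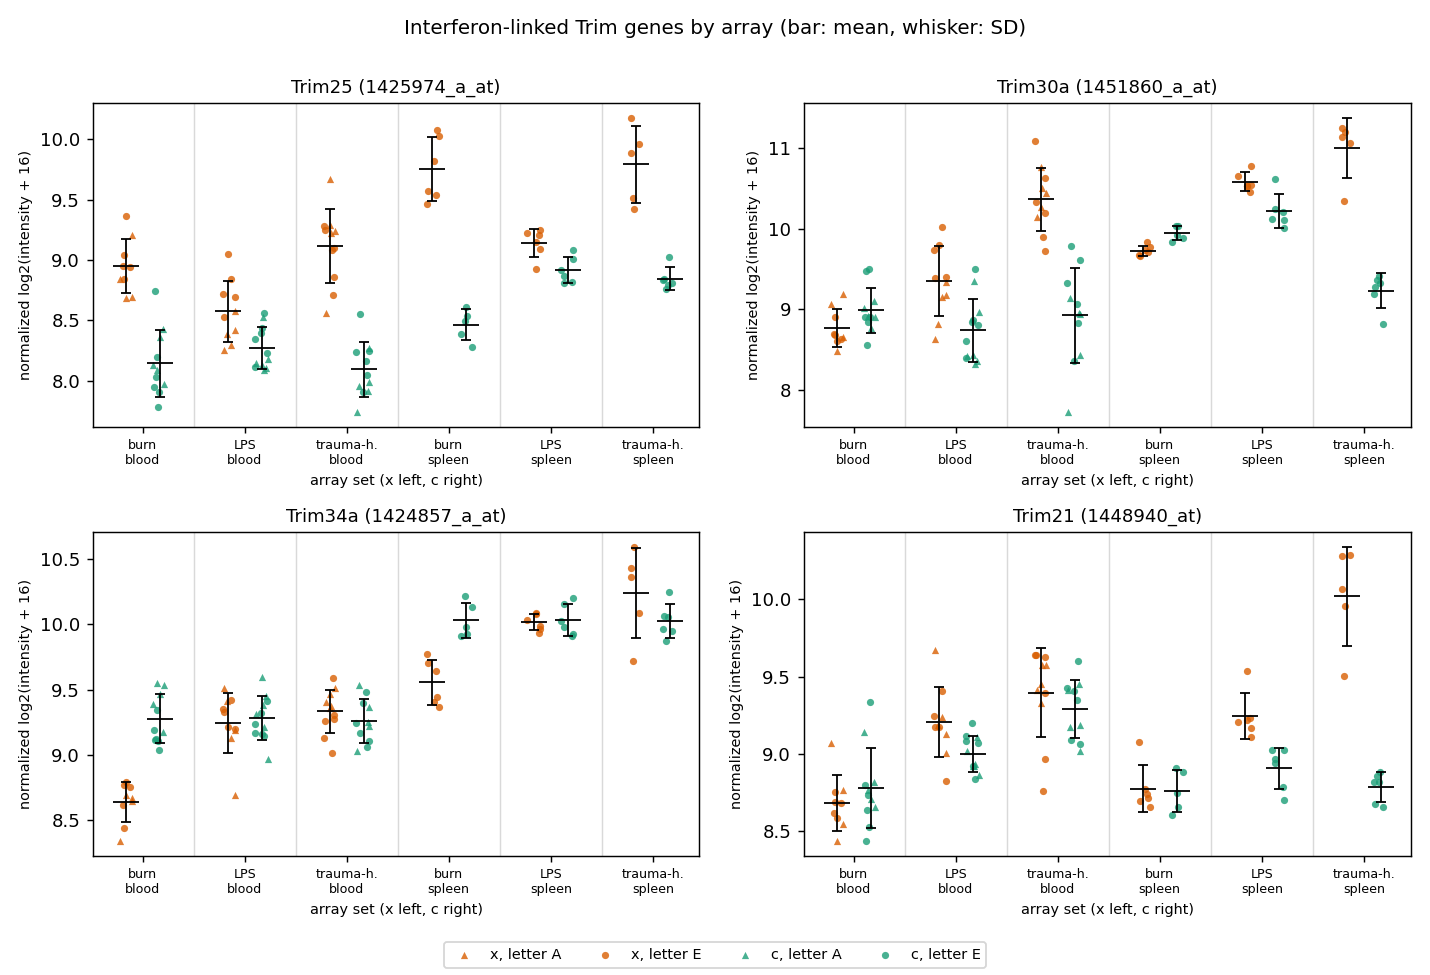
Normalized log2(intensity + 16) of each array for 4 interferon-linked probe sets, with x left of c in each of the 6 array sets, triangles for letter A, circles for letter E, and the mean and SD in black. Trim25 lies higher in x in burn and trauma-hemorrhage arrays, Trim30a in trauma-hemorrhage arrays, and Trim21 in trauma-hemorrhage spleen, while Trim34a lies lower in x in both burn sets.

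Trim26, a ligase reported to act on the interferon regulator Irf3 in the nucleus, was higher in x in trauma-hemorrhage spleen by both probe sets, 0.58 ± 0.12 (1424929_a_at) and 0.46 ± 0.10 (1421600_a_at). In trauma-hemorrhage blood the calls were opposite, 0.28 ± 0.07 higher by 1424929_a_at and -0.30 ± 0.05 lower by 1421600_a_at, and 1421600_a_at was also lower in LPS blood, by -0.17 ± 0.05. With the beta-actin covariate these 3 differences were -0.037, -0.094 and 0.22, and 0 of them passed. Trim6, with differences between -0.08 and 0.12, was called in 0 sets.

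Relatives of the family under other symbols were measured by 5 probe sets, of which 3 were tested. Pml, the organizer of nuclear bodies, was higher in x in trauma-hemorrhage spleen (1.28 ± 0.14), trauma-hemorrhage blood (0.86 ± 0.17) and LPS spleen (0.30 ± 0.06), and lower in x in burn blood (-0.84 ± 0.09) and burn spleen (-0.43 ± 0.08). Mefv, which encodes the inflammasome sensor pyrin, was higher in trauma-hemorrhage blood (1.58 ± 0.18), trauma-hemorrhage spleen (1.04 ± 0.09) and LPS spleen (0.99 ± 0.10). Mid1 was called in 0 of 6 sets, and both probe sets of Mid2 were too dim to be tested.

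Classical interferon response genes, 31 tested probe sets of 25 genes, were called higher and lower in x in numbers of 30 and 0 in trauma-hemorrhage spleen (median 2.49), 25 and 0 in trauma-hemorrhage blood (0.98), 20 and 0 in LPS spleen (0.59), 14 and 1 in LPS blood (0.17), 5 and 1 in burn blood (0.00) and 1 and 2 in burn spleen (-0.04). Of all probe sets tested, in the same order of sets, 26.4%, 51.6%, 3.46%, 26.5%, 19% and 16.2% were called. In trauma-hemorrhage spleen Ifit1, Cxcl10 and Ifit2 had the smallest p, at 4.49 ± 0.18, 4.18 ± 0.16 and 3.23 ± 0.16. In burn spleen, where Trim25 was higher in x without overlap, Rsad2, an antiviral enzyme, was lower by -1.49 ± 0.15 and Zbp1, a nucleic acid sensor, higher by 0.39 ± 0.07.

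Partners and substrates of TRIM ligases, 48 tested probe sets of 26 genes, were called higher and lower in x in numbers of 21 and 12 in trauma-hemorrhage blood, 12 and 3 in burn spleen, 11 and 4 in trauma-hemorrhage spleen, 11 and 7 in LPS blood, 9 and 7 in burn blood, and 3 and 1 in LPS spleen. Of all probe sets tested, in the same order of sets, 51.6%, 16.2%, 26.4%, 26.5%, 19% and 3.46% were called. Of all calls, in that order, 43.7%, 55.2%, 39.2%, 50%, 40.5% and 74.1% were higher. The medians of the list lay between -0.02 (burn blood) and 0.13. Irf7, a master regulator of interferon genes, rose by 2.07 ± 0.18 in trauma-hemorrhage spleen. Irf7 and Ddx58 stand both in this list and in that of the interferon response genes. Tbk1, the kinase downstream of RNA and DNA sensors, rose by 1.38 ± 0.15 in trauma-hemorrhage blood (1460315_s_at) and by 0.50 ± 0.07 in burn spleen (1422469_at). Each is the Tbk1 probe set of smallest p in its set. Irf3, a target of Tbk1, was lower in burn blood by -0.45 ± 0.05. Tab2 and Tab3, adaptor proteins that Trim30a acts on, were lower in LPS blood by -0.50 ± 0.09 and -0.36 ± 0.07, and Tab3 was higher in burn blood by 0.46 ± 0.07.

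Neutrophil markers also differed between the codes: 5 of 7 were higher in x and 0 lower in burn blood, LPS spleen and trauma-hemorrhage spleen, 6 and 0 in LPS blood, 5 and 1 in trauma-hemorrhage blood, and 0 and 1 in burn spleen. In trauma-hemorrhage spleen their mean ranged from 9.37 to 10.35 log2 (median 9.72) in x arrays, against 8.77 to 9.90 (median 9.06) in c arrays. In trauma-hemorrhage blood it ranged from 10.69 to 12.56 (median 11.10) in x arrays, against 9.31 to 10.87 (median 10.43) in c arrays. B cell markers were lower in x in burn blood (5 of 5), burn spleen (5 of 5) and trauma-hemorrhage spleen (4 of 5, with 10.51 to 10.93 log2 in x arrays against 11.10 to 11.31 in c arrays). T cell markers were lower in x in trauma-hemorrhage spleen (4 of 5), where their mean ranged from 8.14 to 8.32 in x arrays, against 8.85 to 9.29 in c arrays, without overlap. They were higher in x in burn spleen (3 of 5, 0 lower) and trauma-hemorrhage blood (3 of 5, 1 lower). Red pulp macrophage markers were lower in burn spleen (4 of 4), with 7.34 to 7.71 in x arrays, against 8.02 to 8.62 in c arrays. Of all probe sets tested, 19% were called in burn blood, 26.5% in LPS blood and 51.6% in trauma-hemorrhage blood. In spleen the shares were 16.2% in burn, 3.46% in LPS and 26.4% in trauma-hemorrhage. The part of cell composition in the differences of the Trim genes was not tested.

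Trim10, known in mice for its part in the terminal maturation of red blood cells, was lower in x in trauma-hemorrhage blood and was not called elsewhere. There it ranged from 8.66 to 9.93 log2 (median 9.12) in x arrays, against 9.72 to 10.87 (median 10.43) in c arrays, a difference of -1.25 ± 0.14, 2.39-fold lower (adjusted p = 8.9e-07). All 11 x arrays lay below the c mean, and the groups overlapped at their ends. With the beta-actin covariate the difference was -0.54 (adjusted p = 0.468). In the other 5 sets it lay between -0.05 and 0.16.

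The erythroid genes fixed as a list, 27 tested probe sets of 18 genes, had 0 higher and 13 lower in x in trauma-hemorrhage blood (median -0.16), the same counts in burn spleen (median -0.32), 7 and 1 in LPS blood, 3 and 1 in burn blood, 2 and 0 in trauma-hemorrhage spleen and 0 and 0 in LPS spleen. Of all probe sets, 22.5% were higher and 29.1% lower in trauma-hemorrhage blood, and 8.93% and 7.25% in burn spleen. These shares were 13.2% each in LPS blood and 7.7% and 11.3% in burn blood. They were 10.4% and 16.1% in trauma-hemorrhage spleen, and 2.56% and 0.897% in LPS spleen. In trauma-hemorrhage blood Car2 was lower by -0.94 ± 0.15, Fech, the last enzyme of heme synthesis, by -0.87 ± 0.15 and Hemgn by -0.57 ± 0.09. In burn spleen Alas2, the first enzyme of erythroid heme synthesis, was lower by -3.02 ± 0.16, while Trim10 stood at 6.43 to 7.18 log2 in x arrays, against 6.84, 6.61, 6.59, 6.80 and 6.90 in c arrays, a difference of -0.05 ± 0.12 that did not pass. The mean of the erythroid cell markers there was 5.25 to 5.55 in x arrays, against 6.45 to 7.06 in c arrays, and in trauma-hemorrhage blood 8.84 to 9.30 in x arrays, against 9.03 to 9.43 in c arrays. Of the 4 tested erythroid cell markers, 2 were called lower in trauma-hemorrhage blood and 3 in burn spleen, and 0 higher. Trim10 was thus lower in x beside 13 of the 27 list probe sets in trauma-hemorrhage blood, and not called beside as many in burn spleen. The relation of Trim10 to these genes was not tested.

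Of the other members, Trim59, a ligase with a membrane anchor, was lower in x in 4 of 6 sets. In trauma-hemorrhage spleen it stood at 7.56, 8.33, 7.64, 7.75 and 7.98 log2 in x arrays, against 8.59 to 9.28 (median 9.04) in c arrays, without overlap, a difference of -1.13 ± 0.14, 2.19-fold lower (adjusted p = 3.7e-05). In burn spleen it ranged from 7.90 to 8.58 (median 8.46) in x arrays, against 8.78, 9.23, 8.86, 9.24 and 8.93 in c arrays, also without overlap, and differed by -0.66 ± 0.13 (adjusted p = 0.0021). In trauma-hemorrhage blood the difference was -0.66 ± 0.13 (adjusted p = 3.4e-04; -0.35 and 0.717 with the covariate) and in LPS spleen -0.42 ± 0.10 (adjusted p = 0.027). The LPS spleen call ended in 5 of 12 fits without 1 array. In burn blood -0.31 ± 0.11 did not pass, and passed at -0.37 without the 2 c arrays with high neutrophil markers.

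Trim11 was higher in x in both burn sets. In burn blood it ranged from 8.19 to 8.61 log2 (median 8.33) in x arrays, against 7.27 to 7.88 (median 7.63) in c arrays, a difference of 0.74 ± 0.07, 1.67-fold (adjusted p = 2.1e-07). In burn spleen it ranged from 7.77 to 8.17 (median 8.05) in x arrays, against 7.57, 7.22, 7.21, 7.54 and 7.47 in c arrays, and differed by 0.62 ± 0.09 (adjusted p = 2.7e-04). Neither pair of groups overlapped. In trauma-hemorrhage blood it was higher by 0.26 ± 0.10 (adjusted p = 0.033), a call that ended in 6 of 22 fits without 1 array and turned to -0.37 with the covariate. In trauma-hemorrhage spleen it stood at -0.18 ± 0.08 (adjusted p = 0.109).

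The transcriptional cofactors of the family, which join the tripartite motif to a PHD finger and a bromodomain, moved by small amounts. Trim24 (1427258_at) was higher in x in burn spleen by 0.45 ± 0.10 and lower in trauma-hemorrhage spleen by -0.33 ± 0.11. The second call (adjusted p = 0.049) was lost in 8 of 11 fits without 1 array and without further scaling (adjusted p = 0.056). Trim33, a regulator of Smad4 signaling, was lower in trauma-hemorrhage spleen by -0.34 ± 0.07 without overlap and in trauma-hemorrhage blood by -0.20 ± 0.05. The blood difference was -0.0020 without further scaling (adjusted p = 0.975). Trim28, the corepressor of KRAB zinc finger proteins, was lower in burn blood by -0.22 ± 0.08 (adjusted p = 0.047), a call lost in 15 of 20 fits without 1 array.

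**Figure D4:**
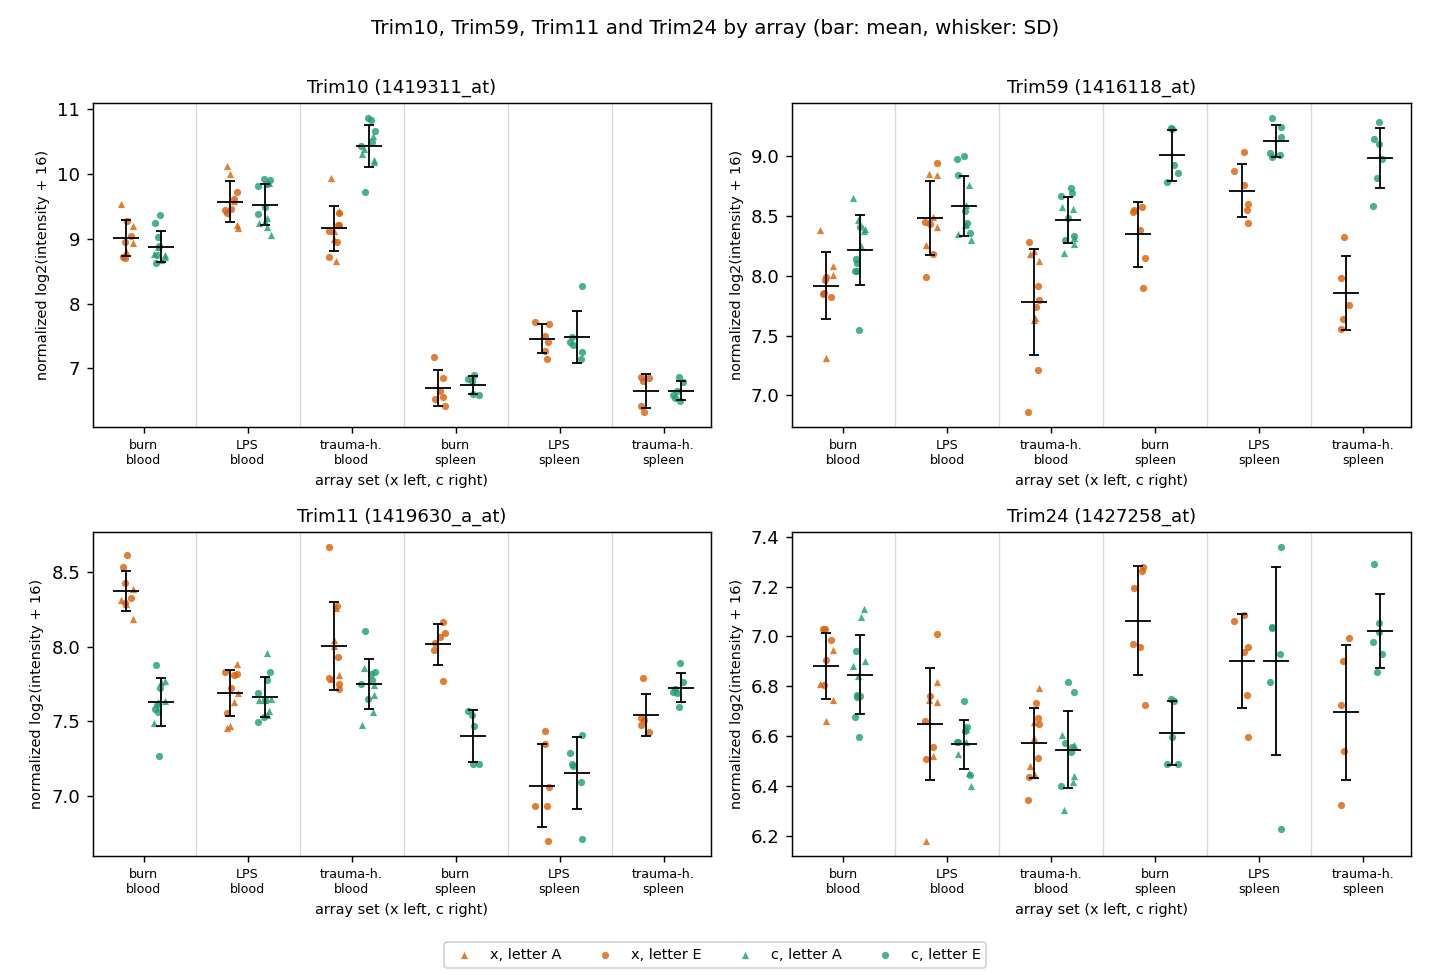
Normalized log2(intensity + 16) of each array for Trim10, Trim59, Trim11 and Trim24, with x left of c in each of the 6 array sets, triangles for letter A, circles for letter E, and the mean and SD in black. Trim10 lies lower in x in trauma-hemorrhage blood, Trim59 lower in x in all 3 spleen sets and trauma-hemorrhage blood, and Trim11 higher in x in both burn sets.

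Several members had opposite calls in different sets, for which no share over all probe sets was taken. Trim27 (1448101_s_at), first known as a fusion partner of the RET kinase in human tumors, was lower in burn blood by -0.42 ± 0.06 and higher in LPS blood by 0.28 ± 0.05. Trim41 was lower in trauma-hemorrhage spleen by -0.49 ± 0.10 and in LPS blood by -0.22 ± 0.06, and higher in trauma-hemorrhage blood by 0.22 ± 0.07. Trim39 did likewise, at -0.28 ± 0.07, -0.24 ± 0.08 and 0.17 ± 0.06. With the covariate, the trauma-hemorrhage blood differences of Trim41 and Trim39 were -0.056 and -0.044, and the Trim39 call there ended in 10 of 22 fits without 1 array.

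Trim13, a ligase of the endoplasmic reticulum membrane, was higher in burn spleen by 0.44 ± 0.11 and in trauma-hemorrhage spleen by 0.35 ± 0.11 (a call lost in 5 of 11 fits without 1 array), and Trim37, mutated in the human growth disorder mulibrey nanism, in LPS blood by 0.38 ± 0.05 without overlap (1436393_a_at). In trauma-hemorrhage blood the lowest other members after Trim59 were Trim62 (-0.35 ± 0.08 and -0.29 ± 0.09 by its 2 tested probe sets) and Trim16 (-0.30 ± 0.07). The remaining calls there were lower by -0.12 to -0.25 (Trim8, Trim27, Trim29, Trim31, Trim33, Trim35, Trim47 and Trim69). Without further scaling the calls of Trim27 (1438376_s_at) and of Trim62 1436807_x_at ended, at adjusted p = 0.687 and 0.113. Trim8 was also lower in trauma-hemorrhage spleen (-0.28 ± 0.08) and in LPS blood (-0.17 ± 0.06), Trim32 in trauma-hemorrhage spleen (-0.22 ± 0.07, lost in 7 of 11 fits without 1 array) and Trim29 in LPS blood (-0.13 ± 0.04). Tested probe sets of Trim2, Trim3, Trim7, Trim17, Trim43a, Trim44, Trim46 and Trim60 were called in 0 sets.

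Between the letters, which the labels give as injured or infused against sham, limma called 0 of 49 members in each blood set. Of all probe sets it called 0% in burn blood, 0% in LPS blood and 0.0189% in trauma-hemorrhage blood (0.00631% higher and 0.0126% lower). At an unadjusted p under 0.05 the members counted 2, 5 and 6 in the same order, where 5.77%, 5.29% and 10.2% of all probe sets did. The smallest p belonged to Trim25 in LPS blood, with 0.26 ± 0.06 for E minus A by 1419879_s_at (adjusted p = 0.720), and array weights called 4 members there, all higher in E, and 247 probe sets over all. The interaction of code and letter called 0 of 49 members in each set (0.0126%, 0% and 0% of all probe sets in burn, LPS and trauma-hemorrhage blood), with 7, 3 and 5 members, and 12.4%, 7.25% and 8.06% of all probe sets, at an unadjusted p under 0.05. By contrast, the unexplained code, x against c, called 19%, 26.5% and 51.6% of all probe sets in these blood sets. Whether the letter or the code separates injured from sham mice was not tested. The absence of calls between the letters thus does not show that injury or infusion left the members unchanged.

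Whether x minus c differed between models was tested directly. Trauma-hemorrhage minus burn was more positive for 9 and more negative for 8 of 49 members in blood (21.1% and 22.6% of all probe sets, 43.7% in all), and for 10 and 4 in spleen (8.63% and 13.5%, 22.1% in all). In spleen 9 interferon-linked members were more positive in trauma-hemorrhage and 0 more negative, with differences of 2.17 ± 0.22 for Trim30d, 1.98 ± 0.16 for Trim30a (1451860_a_at) and 1.22 ± 0.14 for Trim21. In blood Trim30a differed by 1.67 ± 0.23, Trim12a by 1.17 ± 0.17 and Trim10 by -1.41 ± 0.18. Trauma-hemorrhage minus LPS was more positive for 10 and more negative for 8 members in blood (21.9% and 25.7% of all probe sets, 47.6% in all), and for 9 and 2 in spleen (4.55% and 7.22%, 11.8% in all), with 1.65 ± 0.21 for Trim30d in spleen, 1.48 ± 0.20 for Trim30a (1417961_a_at) in blood and -1.30 ± 0.18 for Trim10 in blood.

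Burn minus LPS was more positive for 5 and more negative for 4 members in blood (9.55% and 11.8% of all probe sets, 21.3% in all), and for 3 and 3 in spleen (4.75% and 3.89%, 8.64% in all). By some probe sets Trim25 was more positive in burn, by 0.84 ± 0.16 in blood (1419879_s_at) and 1.06 ± 0.15 in spleen (1425974_a_at). The Trim25 probe set 1426415_a_at was not: its x minus c was 0.56 in burn spleen and 0.62 in LPS spleen. In burn blood it stood at 0.06, while no Trim25 probe set in LPS blood lay below 0.07. Trim11 was more positive in burn in both tissues, by 0.71 ± 0.11 in blood and 0.70 ± 0.15 in spleen. Trim30a was more negative in burn, by -0.81 ± 0.23 in blood (1451860_a_at) and -0.64 ± 0.15 in spleen (1417961_a_at). In blood this rests on 1451860_a_at alone: x minus c by 1417961_a_at was -0.05 in burn blood and -0.04 in LPS blood. In spleen 1451860_a_at stood at -0.21 in burn and 0.37 in LPS. Trim27 was more negative in burn blood, by -0.69 ± 0.08. Where blood sets with x and c arrays apart in the beta-actin ratio enter such a difference, code and ratio cannot be told apart in it.

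Between tissues, with letter E arrays alone, x minus c in blood minus that in spleen was more positive for 5 and more negative for 8 of 49 members in trauma-hemorrhage (12.8% and 11% of all probe sets, 23.8% in all). Trim10 (-1.40 ± 0.22), Trim25 by 1426415_a_at (-1.24 ± 0.21), Trim21 by 1448940_at (-1.22 ± 0.22) and Trim30d (-1.18 ± 0.33) were more negative in blood. For the other Trim25 probe sets, x minus c over both letters of blood was larger in blood than in spleen. No member passed in burn (0 of 49, with 6 at an unadjusted p under 0.05, where 17.8% of all probe sets were, and 3.01% called) or in LPS (0 of 49, with 5 at an unadjusted p under 0.05, where 18.6% of all probe sets were, and 7.12% called). Array weights called 2 members (1379 probe sets over all) in burn and 5 (2586 over all) in LPS.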

How the data were processed

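Mouse blood leukocytes and spleen were measured on 98 arrays, in 18 groups of 4 to 6 by model, tissue, code and letter. The authors deposited linear intensity values, 1 per probe set and array; the steps behind them, scaling included, are not given in the sources used here. The 64 control probe sets were left out. Intensities were taken as log2(value + 16) and quantile normalized within a tissue, and a probe set was tested if its mean over all arrays reached the 30th percentile, which left 15838. Each was tested on its own by limma 3.58.1 (R 4.3.3; lmFit, contrasts.fit and eBayes, trended), two-sided, at a Benjamini-Hochberg adjusted p of 0.05 over all 15838. Models held a term for every group: those of 1 array set for x against c, all of a tissue for differences between models, and those of letter E for differences between tissues. A value after ± is the SE of a difference unless marked SD. Precision is limited by the number of arrays. No 2 arrays correlated above 0.993, and none was taken as a duplicate.

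The members and the lists were chosen with earlier results of these data known. By rule, the text names the interferon-linked and erythroid members, the relatives, up to 4 other members called with the strongest change in each direction per set, members called in at least 4 sets, up to 4 called members per further test, and the 3 genes of smallest p per list and set, from which some were chosen. Members beyond the rule were named after their values were seen, to account for every call. In simulated data of the 6 sets, 97% to 100% of changes of 1 log2 were recovered, and of changes of 0.5 log2 90% to 96% in blood and 77% to 79% in spleen. The simulation drew independent normal noise and changed few probe sets, without a normalization step or a beta-actin difference. Recovery in the data themselves can thus differ. Alternatives were pseudocounts of 1 and 64, no or other scaling, no filter or the 50th percentile, 1 probe set per gene, array weights, runs of title numbers as a block or alone, the beta-actin ratio as a covariate, single letters and leaving out arrays.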

Additional observations from a re-analysis of the deposited data

Results flagged for a closer look

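Among 216 pairs of the 12 probe sets shown in most detail and a group of 4 to 6 arrays, 20 held an array far from the others by Dixon's criterion, where chance gives about 1 in 20. Values are log2. In trauma-hemorrhage spleen, x replicate 3 was low for Trim30a by both probe sets (11.03 for 1417961_a_at and 10.34 for 1451860_a_at) and high for Trim11 (7.79). Among the c arrays there, replicate 4 was high for Trim25 1425974_a_at (9.03), and replicate 6 was low for Trim25 1426415_a_at (5.88) and Trim30a 1451860_a_at (8.82). In trauma-hemorrhage blood of letter E, x replicate 2 was high for Trim30d (10) and c replicate 2 low for Trim25 1426415_a_at (7.37).

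In burn blood, x replicate 5 of letter E was high for Trim25 1419879_s_at (10.28), x replicate 2 of letter E high for Trim30a 1451860_a_at (8.91), x replicate 3 of letter A low for Trim34a 1424857_a_at (8.34) and c replicate 5 of letter E high for Trim12a 1437432_a_at (7.69). In burn spleen, x replicate 3 was high for Trim21 (9.08) and c replicate 2 low for Trim30a 1417961_a_at (10.05). In LPS blood, c replicate 5 of letter A was high for Trim25 1425974_a_at (8.53) and Trim11 (7.96), and c replicate 4 of letter A for Trim10 (9.86). In LPS spleen, x replicate 3 was high for Trim30d (8.45), x replicate 6 for Trim21 (9.53) and c replicate 6 for Trim10 (8.27).

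Effects of x against c differed between models or tissues by direct tests, and the 4 largest called members of each test are given as log2 differences of differences. In spleen, burn also differs from the other models in the labelled sample type. For trauma-hemorrhage minus burn in spleen they were Trim30d (2.17), Trim30a 1451860_a_at (1.98), Trim30a 1417961_a_at (1.5) and Trim21 (1.22), and in blood Trim30a 1451860_a_at (1.67), Trim30a 1417961_a_at (1.49), Trim10 (-1.41) and Trim12a (1.17). For trauma-hemorrhage minus LPS in spleen they were Trim30d (1.65), Trim30a 1451860_a_at (1.40), Trim21 (0.90) and Trim25 1426415_a_at (0.88), and in blood Trim30a 1417961_a_at (1.48), Trim10 (-1.30), Trim25 1419879_s_at (1.15) and Trim12a (0.95). For burn minus LPS in blood they were Trim25 1419879_s_at (0.84), Trim30a 1451860_a_at (-0.81), Trim11 (0.71) and Trim27 (-0.69), and in spleen Trim25 1425974_a_at (1.06), Trim25 1419879_s_at (0.96), Trim11 (0.70) and Trim30a 1417961_a_at (-0.64). For blood minus spleen in trauma-hemorrhage they were Trim10 (-1.40), Trim25 1426415_a_at (-1.24), Trim21 (-1.22) and Trim30d (-1.18).

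Probe sets whose entry lists several genes, with at least 1 Trim among them, numbered 4 and were left out of the members. 1456494_a_at, listed for Trim30d and Trim30a, was higher in x by 1.75 in trauma-hemorrhage spleen, 1.44 in trauma-hemorrhage blood and 0.43 in LPS spleen. 1421550_a_at, listed for Trim34b and Trim34a, was lower in x by -0.37 in burn spleen and higher by 0.43 in trauma-hemorrhage spleen. In burn blood it was not called, at -0.11.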

How the results depend on the processing

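No paired analysis was possible because the replicate numbers only follow accession order. Counts are members called of 49 tested (64 with no filter, 33 at the 50th percentile filter, 32 with 1 probe set per gene, 48 in some fits without 1 array and with quantile normalization within each set), with the number over all probe sets in brackets. Main counts of 7, 11, 27, 9, 5 and 19 in burn, LPS and trauma-hemorrhage blood and burn, LPS and trauma-hemorrhage spleen moved by over 1.5 times under these settings. Burn blood had 12 (4827) with array weights, 4 (431) with letter E alone, 13 (4406) without the 2 c arrays with high neutrophil markers and 1 (80) in title-number run 2 alone, against 3009 in the main setting. LPS blood had 6 (2848) with 1 probe set per gene, 3 (1705) with the beta-actin covariate, 2 (1097) with letter A alone, 6 (2497) with letter E alone and 2 (663) in run 2 alone, against 4194. Trauma-hemorrhage blood had 0 (27) with the covariate, 12 (3359) with letter E alone and 8 (1554) in run 1 alone, against 8174. Burn spleen had 14 (2659) with no filter, against 2563, LPS spleen 2 (503) with no filter, 3 (437) with 1 probe set per gene, and 2 (398) and 1 (260) in runs 1 and 2 alone, against 548, and trauma-hemorrhage spleen 12 (2965) with 1 probe set per gene, against 4182. Single letters and runs hold fewer arrays, and 1 probe set per gene tests fewer probe sets. Each run alone was chosen after seeing the data. E minus A in LPS blood had 4 (247) with array weights in place of 0 (0). Trauma-hemorrhage minus burn had 11 (4662) with 1 probe set per gene in blood, in place of 17 (6925), and 9 (2967) at the 50th percentile filter and 8 (2490) with 1 probe set per gene in spleen, in place of 14 (3502). Blood minus spleen had 2 (618) with no filter, 2 (1379) with array weights and 3 (1688) without the pair in burn, in place of 0 (476), and 5 (2586) with array weights in LPS, in place of 0 (1128). Leaving out 1 array gave 5 to 9, 9 to 13, 24 to 28, 9 to 11, 2 to 5 and 16 to 23 for x minus c in the order above. It gave 0 to 0 for E minus A and the interaction, 8 to 10 and 5 to 7 for burn minus LPS in blood and spleen, 15 to 20 and 9 to 14 for trauma-hemorrhage minus LPS, and 15 to 19 and 10 to 15 for trauma-hemorrhage minus burn. For blood minus spleen it gave 0 to 2 in burn, 0 to 2 in LPS and 10 to 14 in trauma-hemorrhage. Among differences that passed in the main or the alternative setting, directions turned under the beta-actin covariate alone. Some that passed in neither also changed sign, such as Trim10 with letter E alone (-0.047 in burn blood and -0.20 in LPS blood). The differences that passed in the main or the covariate setting and turned under the covariate are given with their covariate values. In LPS blood they were Trim8 1418577_at (0.29), Trim26 1421600_a_at (0.22), Trim25 1425974_a_at (-0.27), Trim12a 1437432_a_at (-1.02), Trim30d (-0.19) and Trim30a 1451860_a_at (-0.33). In trauma-hemorrhage blood they were Trim39 (-0.044), Trim11 (-0.37), Trim41 (-0.056), Trim26 1424929_a_at (-0.037), Trim34a 1426093_at (-0.37), Trim25 1426415_a_at (-0.042), Trim62 1436807_x_at (0.094), Trim30d (-0.21) and Trim16 (0.065). The cause of these moves was not tested.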
